A study of Mus musculus with 6 samples.

Results

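The myogenic regulatory factors and their MEF2 partners were measured with 6 probes, 1 for each of Myod1, Myf5, Myog, Myf6, Mef2a and Mef2c. The probes were chosen by their gene names in the platform's annotation, and they are 6 of the 223 probes of the array. Each sample was the soleus, a slow postural muscle of the calf, of a WT mouse of the 129/SV strain. All 6 mice had their hindlimbs suspended for 7 days and then bore load again for 1 day, and no unloaded or untreated muscle was analysed here. The values are therefore levels in reloaded muscle and their spread between mice, and no effect of reloading was tested.

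The myogenic regulatory factors are basic helix-loop-helix proteins that bind the E box, a short DNA element, together with partner proteins and switch on muscle genes. Myod1 and Myf5 commit precursors to the muscle lineage, Myog drives their differentiation into fibres, and Myf6 (also called MRF4) is the member most typical of mature fibres. MEF2 proteins such as Mef2a and Mef2c bind AT-rich elements and act with these factors at muscle promoters. In adult muscle, Myod1 and Myf5 are known as genes of satellite cells, the resident stem cells, and of the myoblasts that arise from them.

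A promoter sequence was at hand for 4 of the 6 genes in RefSeq (GRCm38.p6): Myf5, Myog, Mef2a and Mef2c, the last with 3 start sites. Those of Myog and of the first start site of Mef2c are shown. Each gene belongs to 1 of the pairs described below whose correlation over the mice had the smallest adjusted p. Mef2a, whose pair with Myog had the highest r, is not shown, and its window held no match. Each sequence shown is the 250 bases before the start site, 5′ to 3′ on the gene's strand. Capitals mark matches on either strand to the E box (CANNTG) or to a MEF2-like element (CTANNNNTA), which do not overlap here. The Myog window is chr1:134289754-134290003 on the plus strand, and that of Mef2c is chr13:83503784-83504033 on the plus strand.
Myog: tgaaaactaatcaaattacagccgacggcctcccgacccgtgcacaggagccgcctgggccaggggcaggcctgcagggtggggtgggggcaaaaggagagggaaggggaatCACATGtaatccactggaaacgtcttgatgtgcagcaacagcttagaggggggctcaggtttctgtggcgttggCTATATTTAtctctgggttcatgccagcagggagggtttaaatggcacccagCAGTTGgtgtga
Mef2c: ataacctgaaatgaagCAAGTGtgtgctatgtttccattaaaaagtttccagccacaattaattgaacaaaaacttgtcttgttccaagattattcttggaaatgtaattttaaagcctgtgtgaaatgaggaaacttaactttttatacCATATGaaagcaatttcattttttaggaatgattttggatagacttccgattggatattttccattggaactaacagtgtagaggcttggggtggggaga

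The Myog window held 2 E boxes, CACATG from 138 to 133 bases and CAGTTG from 12 to 7 bases before the start, and 1 MEF2-like element, CTATATTTA, from 64 to 56 bases before it. The first Mef2c window held 2 E boxes and no such element. The second Mef2c window held neither, and the third held 1 of each. The Myf5 window held no E box and 2 overlapping matches to the MEF2-like element, and the Mef2a window held neither. Such matches are common: of 32851 RefSeq windows of the same length, 66.2% held at least 1 E box, 31.8% held 2 or more, and 19.0% held the MEF2-like element. The stricter MEF2 consensus matched in none of the 6 windows of these genes and in 2.92% of all windows. A match is a stretch of letters and not a site at which binding was measured.

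Signals are given per mille of an array's summed signal over 221 probes (all but 1M and 1O), a scale found from the values and stated by no label. The floor of an array is the 10th percentile of its 223 signals, which lay between 0.5 and 0.7 per mille, and clear of the floor means a signal of at least 2 times that level on the same array. Signals were deposited in steps of 0.1 per mille, and all 36 values of these 6 probes fell on whole steps (tolerance 1e-06). Each sample was read on 1 array, so the spread between mice includes that of labelling and hybridization, and these cannot be told apart. The tissue label was set against muscle fibre markers: 7 of 9 were on the array, all 7 were clear in each mouse, and they summed to 225.3 to 286.2 per mille. Of all probes, 25.6% were clear in each mouse. These markers are of muscle fibres in general and cannot tell the soleus from another muscle. In whole muscle, fewer cells of a type and less RNA per cell cannot be told apart.

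Of the 6 genes, Myf6 and Mef2c lay clear of the floor in each of the 6 mice, Myod1 in 1 mouse, and Myf5, Myog and Mef2a in none. Over all probes, 25.6% were clear in every mouse and 54.3% in none. The members' shares, 2 of 6 and 3 of 6, lie near this background. Which genes were clear in no mouse depended on the limit. At 1.5 times the floor Mef2a was clear in 4 mice, Myog in 2 and Myf5 in 1. With the floor at the 5th percentile Mef2a was clear in 1 mouse. A signal that is not clear of the floor says neither that the gene was expressed nor that it was not.

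Myod1 gave 0.8 per mille in mouse 175, 0.9 in 176, 1.3 in 177, 1.1 in 178, 0.8 in 202 and 1.2 in 203. Mice 177, 203 and 178 were the upper 3, and the mean was 1.02 ± 0.214 per mille (SD, n = 6). Its signal was 1.33 to 2.0 times the floor of its array and met the 2-fold limit exactly, in mouse 203. That call rests on the rounding, as the gene was clear in 0 mice when the rounding step was allowed for. At 1.5 times the floor it was clear in 5 of 6 mice.

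Myf5, the other determination factor, gave 0.9 per mille in mouse 175, 0.7 in 176, 0.7 in 177, 0.8 in 178, 0.5 in 202 and 0.6 in 203, a mean of 0.70 ± 0.141 per mille (SD, n = 6). It was at its array's floor, 1.0 times, in mice 177, 202 and 203, and highest in mouse 175 at 1.5 times. It was the only member for which the deposited signals of mice 202 and 203 both lay below the other 4, as in 13.9% of all probes. As a ratio to the floor, both tied with mouse 177.

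Myog, the differentiation factor, gave 0.9 per mille in mouse 175, 0.8 in 176, 1.0 in 177, 0.9 in 178, 0.7 in 202 and 1.1 in 203, a mean of 0.90 ± 0.141 per mille (SD, n = 6). These signals were 1.29 to 1.83 times the floor. The whole range covered 4 rounding steps, and 1 step is 11.1% of the mean.

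Myf6 gave 3.1 per mille in mouse 175, 3.5 in 176, 4.1 in 177, 3.5 in 178, 2.0 in 202 and 5.0 in 203. The mean was 3.53 ± 1.00 per mille (SD, n = 6), and the signal was 4.0 to 8.33 times the floor. Mice 202 and 203 were the lowest and the highest, 2.5-fold apart, and the other 4 lay between them. The range covered 30 rounding steps, so rounding is small beside it.

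Mef2a gave 1.0 per mille in mouse 175, 0.9 in 176, 1.0 in 177, 1.0 in 178, 0.9 in 202 and 1.1 in 203, a mean of 0.983 ± 0.0753 per mille (SD, n = 6). It took only 3 distinct values, 2 rounding steps from end to end, at 1.43 to 1.83 times the floor. Mef2c gave 4.8 per mille in mouse 175, 5.4 in 176, 8.4 in 177, 6.1 in 178, 4.8 in 202 and 5.9 in 203, a mean of 5.90 ± 1.34 per mille (SD, n = 6). Mouse 177 was highest, and the other 5 lay between 4.8 and 6.1. Mef2c was 8.0 to 12.0 times the floor, so it was clear by a wide margin in every mouse.

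**Figure D1:**
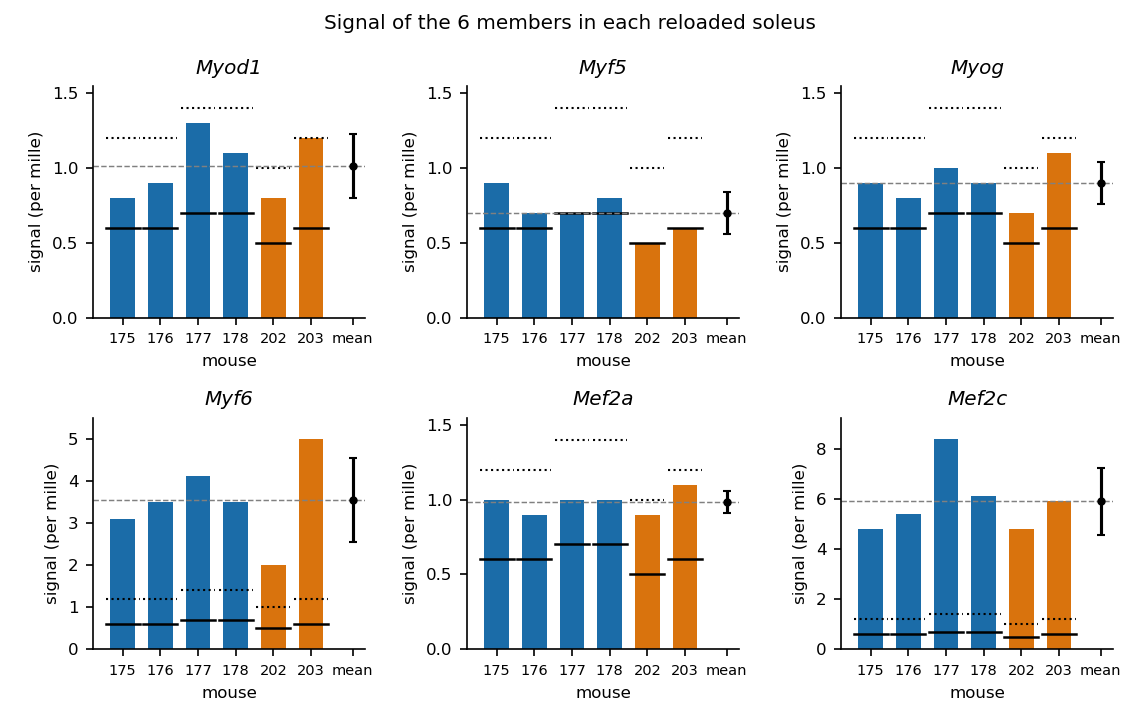
Signal of each gene (per mille of the array total, linear axis from 0) in mice 175 to 178 (blue bars) and 202 and 203 (orange bars), with the mean ± SD of the 6 mice at the right and as a dashed line. Solid black lines mark the floor of each array and dotted lines 2 times the floor: Myf6 and Mef2c stand above the dotted line in all mice, and Myf5 sits at the floor in 3.

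Among the 6 genes the SD over all mice was widest for Myf6, at 0.44 on the log2 scale, a rank that rests on mouse 202. Of the 223 probes, 205 had a smaller SD, and the median over all probes was 0.27. Myod1, Mef2c and Myf5 lay close together, each at an SD of 0.30 on the log2 scale, with 152, 151 and 150 probes below them. Myog had an SD of 0.23, with 73 probes below it. Mef2a was among the narrowest probes of the array, with an SD of 0.11 and 8 probes below it. For the 4 genes near the floor 1 rounding step at the mean equals 0.14 to 0.19 on the log2 scale, more than the whole SD of Mef2a, so that its narrowness cannot be read beyond that step. Without mouse 177 the SD of Mef2c was 0.16. Without mouse 202 that of Myf6 was 0.27, below Mef2c at 0.30 and Myod1 at 0.29. By the median absolute deviation, Myf6 at 0.30 lay below Myod1 at 0.43 and Myf5 at 0.31.

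**Figure D2:**
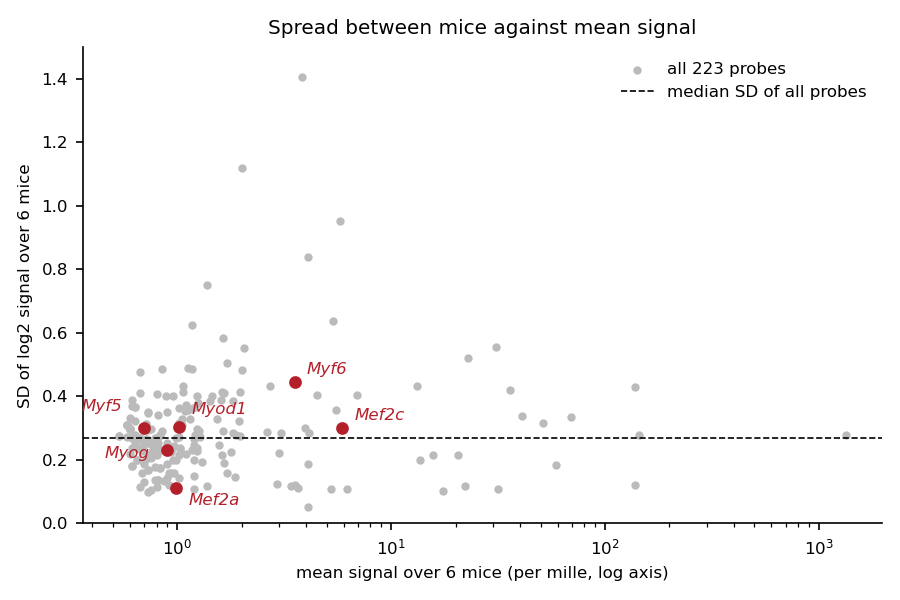
SD of log2 signal over the 6 mice against mean signal (per mille, log axis) for all 223 probes (grey) and the 6 genes (red), with the median SD of 0.27 as a dashed line. Myf6 lies above most probes at 0.44 and Mef2a near the bottom at 0.11.

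Over the 6 arrays the signals of the genes were positively correlated, weakly so for Myf5, and no correlation passed adjustment. Mouse 202 was lowest, or tied for lowest, in all 6 genes. It also was in 66.8% of all 223 probes. Mouse 203 was highest or tied in 3 of the genes (Myog, Myf6 and Mef2a) and in 29.6% of all probes. Mouse 177 was so in 2 genes (Myod1 and Mef2c) and in 43.5% of all probes, and mouse 175 in Myf5 and in 16.6%. Since mice 202 and 203 lay at opposite ends for Myog, Myf6 and Mef2a, they did not form a cluster of their own in these genes, and correlations were taken over all 6 mice. In Myf5 both lay below all the others, as in 13.9% of all probes. Its correlations over all 6 mice therefore mix that split with the spread between mice, and no test is read from them.

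All 15 pairs of genes had a positive Pearson correlation of log2 signal, with a median r of 0.60, against a median of 0.37 over all 24753 pairs of probes on the array. Of the 15, 4 had an unadjusted exact permutation p under 0.05, and 0 passed after Benjamini-Hochberg adjustment over the 15 pairs (exact permutation, smallest adjusted p = 0.0833). Over all pairs of probes, 12.2% were positive with an unadjusted p under 0.05. Pairs that share a gene are not independent, and all signals of an array are parts of the same total. The adjustment also counted the pairs with Myf5, from which no test is read.

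Myod1 and Mef2c had r = 0.90 (exact permutation p = 0.00556, adjusted p = 0.0833, n = 6) and Spearman's rho = 0.94 (exact permutation p = 0.0167, adjusted p = 0.167). Both were lowest in mice 175 and 202 and highest in mouse 177. Without the 2 mice farthest from the Myod1 median, 177 and either 175 or 202 (whose values are identical in both genes), r was 0.93. Myog and Myf6 had r = 0.92 (exact permutation p = 0.0111, adjusted p = 0.0833, n = 6) and rho = 0.87 (exact permutation p = 0.0444, adjusted p = 0.167). Mouse 202 was lowest and mouse 203 highest in both of these genes. Without those 2 mice r was 0.54, so that this relation rests largely on them.

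**Figure D3:**
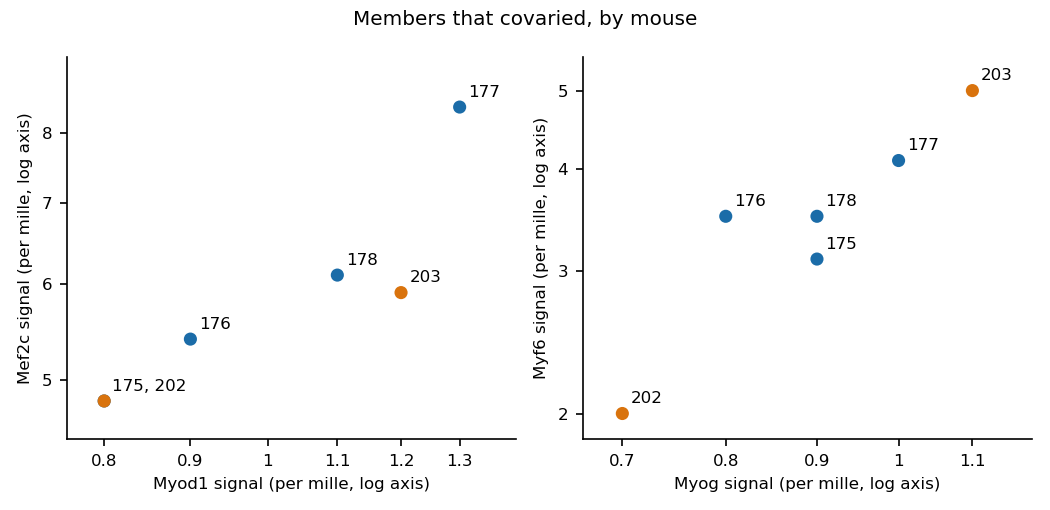
Signal of Mef2c against Myod1 (left) and of Myf6 against Myog (right) in each mouse, in per mille on log axes, with mice 175 to 178 in blue and 202 and 203 in orange. Mouse 177 lies at the top of the left panel at 1.3 and 8.4 per mille, and mice 202 and 203 form the ends of the right panel.

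Myog and Mef2a had r = 0.93 (exact permutation p = 0.0333, adjusted p = 0.146, n = 6) and rho = 0.94 (exact permutation p = 0.0333, adjusted p = 0.167), over 4 and 2 rounding steps. Without mice 202 and 203 r was 0.84. Mef2a was then at 0.9 per mille in mouse 176 and at 1.0 in mice 175, 177 and 178, so that value rests on 1 rounding step in 1 mouse. Myod1 and Myf6 had r = 0.79 (exact permutation p = 0.0389, adjusted p = 0.146, n = 6) and rho = 0.91 (exact permutation p = 0.0222, adjusted p = 0.167), and r was 0.89 without mice 175 and 177 or 0.83 without mice 177 and 202. The 5 pairs that include Myf5 had r between 0.02 and 0.32, whereas the 10 pairs without it had r between 0.36 and 0.93. The mean r of the Myf5 pairs was 0.19, and -0.57 without mouse 202. With values centred within each number run, the Myf5 pairs had r between -0.34 and 0.68, and the others between 0.44 and 0.95. Myf5 and Myf6 are neighbours on chromosome 10 with 0 annotated genes between them, and their r was 0.31 (exact permutation p = 0.592, adjusted p = 0.740, n = 6), with rho = -0.07 (exact permutation p = 0.894, adjusted p = 0.894). Without mice 175 and 202 that r was -0.88. No test is read from this pair, as it includes Myf5.

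Over all 6 mice, each gene correlated positively with array level, here the mean log2 signal of the probes outside the family. Array level is not total signal: the summed signal without 1M and 1O was 998.6 to 1000.4 per mille on every array. The mean log2 signal of the other 217 probes ranged from 0.28 in mouse 202 to 0.61 in mouse 177, and its correlation with the members was 0.90 for Myog, 0.87 for Myf6, 0.84 for Myod1, 0.79 for Mef2a, 0.72 for Mef2c and 0.52 for Myf5. The exact permutation p-values ran from 0.0111 to 0.292, and none of the 6 passed after adjustment over the 6 relations (smallest adjusted p = 0.0667). Spearman's rho ran from 0.38 to 0.90 (exact permutation p from 0.0278 to 0.478, smallest adjusted p = 0.133). The highest p-value of each kind was that of Myf5, from which no test is read. Without mice 176 and 202, the farthest in array level, r was 0.96 for Myod1, 0.82 for Mef2c, 0.64 for Myf6, 0.46 for Myog, 0.20 for Mef2a and -0.67 for Myf5. The median r of all probes with array level was 0.70, and Myf5 alone of the 6 genes lay below it.

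With each array centred on its median, 7 of the 15 pairs were positive, with a median r of -0.12, against 0.06 over all pairs of probes. Here Myod1 and Mef2c had r = 0.80 (exact permutation p = 0.0417, n = 6) and were the only pair with an unadjusted p under 0.05, while 6.46% of all pairs of probes were positive at that level. After adjustment over the 15 pairs 0 passed (smallest adjusted p = 0.563, exact permutation). Myog and Myf6 had r = 0.75 (exact permutation p = 0.075), Myod1 and Myf6 0.56 (p = 0.239) and Myog and Mef2a 0.27 (p = 0.70). Mef2a turned to negative correlations with Myod1, Myf6 and Mef2c, at -0.43, -0.32 and -0.57. All 5 Myf5 pairs became negative, with r between -0.62 and -0.12. The correlations of Mef2a and Myf5 changed sign with centring in all but 1 pair, Myog and Mef2a. On 2 other scales neither of the leading pairs had an unadjusted p under 0.05. With quantile normalization Myod1 and Mef2c had r = 0.61 (exact permutation p = 0.208) and Myog and Myf6 r = 0.51 (p = 0.342), and with arrays divided by their floor these were 0.78 (p = 0.0625) and 0.73 (p = 0.133). The only pair under 0.05 on those scales was Myod1 and Myf5, which was negative, with r = -0.90 (exact permutation p = 0.0181) after quantile normalization and -0.85 (p = 0.0167) after division by the floor. That pair had r = 0.02 on the deposited signals. Since it includes Myf5, no test is read from these p-values.

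**Figure D4:**
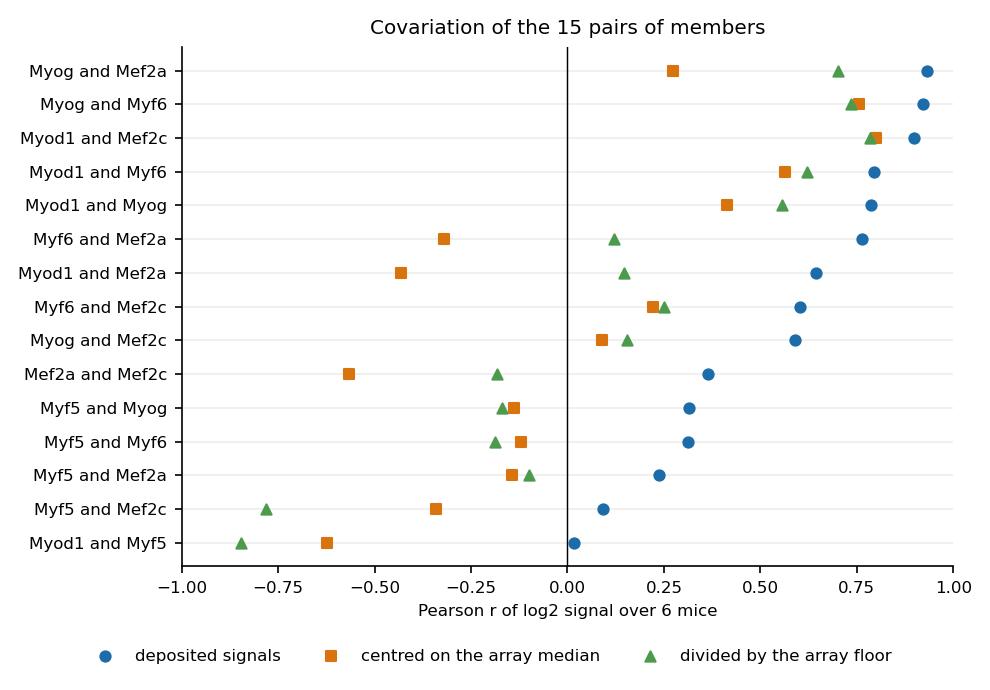
Pearson r of log2 signal over the 6 mice for each of the 15 pairs, from the deposited signals (circles), after centring each array on its median (squares) and after dividing it by its floor (triangles). All circles lie above 0, and the squares and triangles of the 5 Myf5 pairs lie below 0.

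The numbers in the sample titles fall into consecutive runs, 175 to 178 in 4 samples and 202 to 203 in the other pair, whose meaning no label gives. Samples 202 and 203 were compared with the other 4 as a check on the spread, with limma over all 223 probes. No member passed an adjusted p of 0.05 (Benjamini-Hochberg), and 1 of 6, Myf5, had an unadjusted p under 0.05. Over all probes 6.28% passed the adjusted limit and 22.9% the unadjusted one. Myf5 was at 0.5 and 0.6 per mille in mice 202 and 203 and at 0.7 to 0.9 in the others, a log2 difference of -0.49 (SE 0.19, 95% interval -0.90 to -0.08, limma adjusted p = 0.138). Both mice were below all 4 others in 13.9% of probes. With quantile normalization, and without mouse 175 or mouse 178, 0 members had an unadjusted p under 0.05. The other 5 genes differed by -0.18 to 0.03 on the log2 scale, with 95% intervals that all included 0, and the median of all probes was -0.18. The widest of these intervals was that of Myf6, from -0.73 to 0.41, and the narrowest that of Mef2a, from -0.36 to 0.42.

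**Figure D5:**
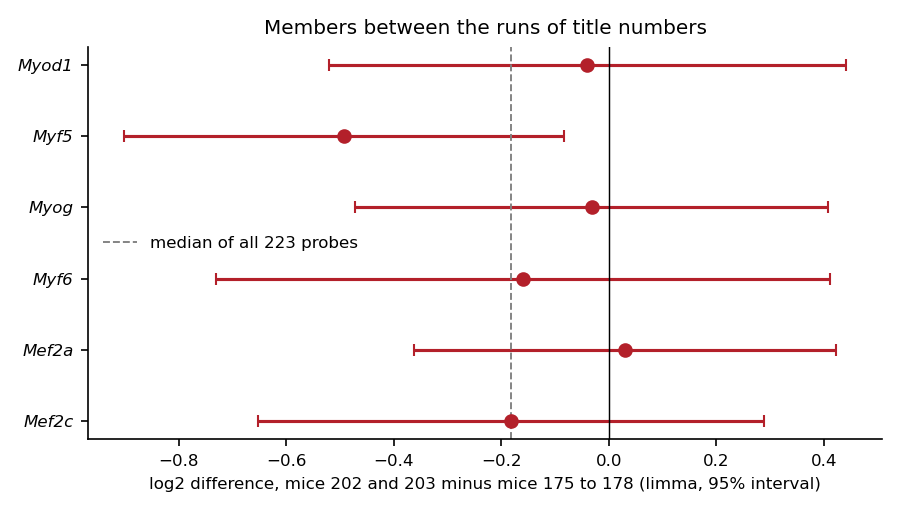
Log2 difference in signal of mice 202 and 203 from mice 175 to 178 for each gene (points, limma) with its 95% interval (bars). The dashed line is the median of all 223 probes at -0.18, and only the interval of Myf5 lies wholly below 0.

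For each gene the 3 probes with the most similar pattern were taken from the named probes whose mean signal lay above the dimmest 25%, by Pearson's r over the 6 mice after centring. These are the highest of 157 or 158 values for each gene, over 6 mice, and are a description only. Myod1 was closest to Pparg, a nuclear receptor of fat cell formation (r = 0.92), to desmin (Des), the muscle intermediate filament (0.91), and to Rpsa, a ribosomal protein (0.90). Mef2c was closest to Igfbp5, a binding protein for insulin-like growth factors (0.94), to Dmpk, the myotonic dystrophy kinase (0.92), and to Rpsa (0.89). Of these 5 probes Pparg was clear in no mouse, Igfbp5 in 1 and Rpsa in 2, and Des and Dmpk in each of the 6. Like Mef2c, the latter pair were highest in mouse 177, Des at 49.7 and Dmpk at 4.2 per mille. Of all probes, 43.5% were highest or tied in that mouse.

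Myog was closest to Mmp14, a membrane-bound matrix protease (r = 0.92), to Itgb1, the common integrin beta chain (0.83), and to Fabp4, a fatty acid binding protein of fat and capillary cells (0.80). Myf6 was closest to Tgfb1, a growth factor that restrains muscle differentiation (0.89), to Itgb1 (0.84) and to Ccnd1, a cyclin of the early cell cycle (0.83). Itgb1, at 4.3 to 9.0 per mille, and Fabp4 were clear in every mouse, Tgfb1 in 4, and Mmp14 and Ccnd1 in none. Myf5 was closest to Igfbp1 (0.92), to Hif1a, the oxygen-sensing transcription factor (0.91), and to Top1, a DNA topoisomerase (0.91), of which Igfbp1 and Hif1a were clear in no mouse and Top1 in 3. Mef2a was closest to Igfbp2 (0.98), Il6st (0.97) and Il6ra (0.95), of which only Il6st was clear in any mouse. On the deposited signals these values were 0.61, 0.19 and 1.0, so the likeness to Il6st and Igfbp2 depended on the centring, and its own signal moved by 2 rounding steps while the array medians lay at 0.8, 0.9 or 1.0 per mille.

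Genes of the pathway around these factors gave mixed signals. Of the target genes of myogenic and MEF2 factors, 10 of 33 were on the array, and 9 of the 10 were clear in each mouse, where 25.6% of all probes were. The slow myosin heavy chain Myh7 gave 49.0 to 84.4 per mille and titin (Ttn), the spring of the sarcomere, 17.8 to 26 per mille. Capn3, a muscle calpain, was the exception, at 0.6 to 1 per mille and clear in no mouse. Both measured regulators, Srf (1.5 to 2.3 per mille), which binds muscle promoters beside MEF2, and Jun (1.2 to 2.6 per mille), an immediate early factor, were clear in all mice.

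Of the satellite cell genes, 4 of 14 were on the array. Besides Myod1 and Myf5, these were Cd34, also a gene of endothelial cells, at 1.5 to 2.6 per mille and clear in all mice, and Vcam1, an adhesion molecule, at 0.5 to 0.8 per mille and clear in none. None of the 7 measured genes of cell cycle entry and exit was clear in all mice: 2 were clear in some, and 5 in no mouse (54.3% of all probes were clear in none), among them Cdkn1a, an inhibitor that accompanies cell cycle exit (0.5 to 1.1 per mille), and Rb1 (0.9 to 1.1 per mille). Of 12 measured growth factors and receptors that act on muscle precursors, Igf1 and Igf2 were clear in all mice, Tgfb1 in 4, and 9 in none, beside the same 25.6% and 54.3% of all probes; among the 9 was Hgf, which activates satellite cells (0.6 to 1.1 per mille).

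In the comparison of the number runs 2 of the 7 cell cycle genes were higher in mice 202 and 203, the cyclin Ccna1 (2.1 and 2.7 against 1.0 to 1.7 per mille) and the kinase Cdk4 (1.2 and 1.5 against 0.8 to 0.9 per mille). Of the 12 growth factor genes 1 was higher, Igf2 (7.0 and 7.5 against 2.0 to 3.2 per mille), and no gene of the target, regulator or satellite cell lists passed (limma adjusted p under 0.05, 6.28% over all probes). The median SD of log2 signal was 0.34 for the target genes, 0.31 for the regulators and for the cell cycle genes, and 0.30 for the satellite cell genes and the growth factors, beside 0.27 over all probes. Markers of other cell types were few. All 5 endothelial markers were measured, and their sum ran from 5.1 to 8.3 per mille. Of these 1 (Pecam1) was clear in each mouse, 1 in some and 3 in none, beside 25.6% of all probes in each mouse and 54.3% in none. For fibroblasts 2 of 5 were measured, with a sum of 1.9 to 3.1 per mille, and for fat cells Fabp4 alone of 4, at 3.5 to 6.8 per mille. The part of these cell types in the levels of the myogenic genes was not tested. Of the macrophage, blood and nerve markers, 0 of 11 were measured.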

How the data were processed

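Per the labels' protocols, total RNA was isolated from cryosections of the muscle belly and 4 microgram was reverse transcribed with gene specific primers and radioactive dATP, 1 array per mouse. The authors deposited a linear spot intensity for each of 223 probes. Which scanner was used, and how background and normalization were handled, is not stated in the labels or the file. Depth has no meaning for these arrays, and their number limits the precision. The samples are called biological replicas, and nothing more is said of their origin.

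The platform's annotation named 1 gene for 205 probes and none for 18; symbols of 204 were updated by gene number (GRCm38.p6). Values were used as log2 of the deposited intensity, with no pseudocount. Levels of different probes were not read as levels of their genes relative to each other; brightness served only to pick 1 probe of a gene with several for the lists and to leave out dim probes. Correlations used exact permutation over all 720 pairings, two-sided. limma 3.58.1 (lmFit and eBayes, R 4.3.3) compared the number runs. On simulated data for this comparison (20 sets of 223 probes) it called 90.3% of probes changed 2-fold and 100.0% of those changed 4-fold, and 4.19% of its calls were false. The simulated noise was normal and separate for each probe, with no shift shared by an array and no rounding, and all changes were upward. These rates may therefore not hold for the arrays themselves. Named genes were the 6 members, the 3 probes most like each, and up to 4 members of each of 5 lists; Capn3, Ccna1, Cdk4 and Pecam1 were named after their values were seen. The members, lists, tests and alternatives were chosen with earlier results of these data known, and the motif letters after the promoters had been read.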

Additional observations from a re-analysis of the deposited data

Results flagged for a closer look

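A set of 6 values was singled out when the gap between its highest or lowest mouse and the nearest other, divided by the whole range, exceeded Dixon's 95% critical value for 6 samples. Of 34 sets tested, 3 were singled out, and chance gives about 1.7 for separate sets, which these are not, since they share arrays and give some genes on several scales. Mef2c was highest in mouse 177, at 8.4 per mille against 4.8 to 6.1 in the other 5, a gap of 0.639 of the range. On the log2 scale that gap was 0.572 and as a ratio to the floor 0.542, so that it depended on the scale. The ratio of Myf5 to its array floor was highest in mouse 175, at 1.5 against 1.0 to 1.17 in the others, a gap of 0.667, whereas the gap of its signal itself was 0.25. Hif1a, named for its likeness to Myf5, was lowest in mouse 202 with a gap of 0.667, and its signal was clear of the floor in no mouse.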

How the results depend on the processing

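The count of 2 members clear of the floor in all mice was the same at 1.5 and at 3 times the floor, with the floor at the 5th or the 20th percentile, with allowance for the rounding step, and without each mouse (2 to 2). The count of 3 members clear in no mouse did not hold at 1.5 times the floor, where Mef2a, Myog and Myf5 were each clear in some mice. The median SD of the 6 members was 0.30 on the log2 scale; it was 0.21 with arrays centred on their median, 0.22 with quantile normalization, 0.21 with arrays divided by their floor and 0.17 with a pseudocount of 0.6 per mille, and 0.24 to 0.33 without each mouse. The median over all probes fell likewise, from 0.27 to 0.20, 0.17, 0.20 and 0.15. The count of member pairs with an adjusted p under 0.05 was 0 in every setting, including Spearman's rho, permutation within number runs and leaving out each mouse (0 to 0); permutation within runs has 48 pairings and cannot give a p under 0.0208, so its 0 says little. Without 1 mouse fewer pairings exist than with 6, so those counts of 0 say little too. The 4 pairs named above had a positive r in every setting run, but none had an unadjusted p under 0.05 with quantile normalization, where r was 0.61 for Myod1 and Mef2c, 0.51 for Myog and Myf6, 0.47 for Myod1 and Myf6 and 0.15 for Myog and Mef2a. The mean r of the 10 pairs without Myf5 was 0.73 and fell to 0.18 with centred arrays, 0.07 with quantile normalization, 0.39 with arrays divided by their floor and 0.58 with 50% of the floor subtracted. The mean r of the Myf5 pairs was 0.19 and lay between -0.57 (without mouse 202) and 0.49 without each mouse; it was -0.27 with centred arrays, -0.35 with quantile normalization, -0.42 with arrays divided by their floor and -0.07 with 50% of the floor subtracted. The count of members differing between the number runs was 0 in every limma fit (0 to 0 without each mouse). Leaving out mouse 202 or 203 leaves 1 sample in that run, which is assumed to vary like the others; then 0 and 2 of all 223 probes passed, so that 0 members there says nothing on stability. The difference of Myf5 was negative in each fit, at -0.23 with quantile normalization, -0.25 with arrays divided by their floor, -0.26 with the pseudocount, -0.41 with centred arrays and -0.69 with 50% of the floor subtracted, and -0.62 (without mouse 203) to -0.36 (without mouse 202) without each mouse, with adjusted p-values from 0.103 to 0.423 over all settings. Myf5 is among the dimmest 25% of probes and has no value in that setting. No paired analysis was possible because the study has 1 group. The cause of these shifts was not tested.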
